A study of Mus musculus with 12 samples.

Results

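The intervals described here are the promoter sites of H3K27me3, the histone mark of Polycomb repression, in mouse C2C12 myoblasts. They are the intervals of the deposited myoblast H3K27me3 peak list on chromosomes 1 to 19 that lie within 2 kb of a transcription start site (TSS) of a protein-coding gene in the mm9 genome. Of 17633 intervals in the list, 2243 met this rule, and 15390 lay farther from any such TSS. They reached 1598 of 21275 protein-coding genes, or 7.51%. The members were chosen by myoblast H3K27me3 reads through the peak list, so their H3K27me3 levels in myoblasts, and the H3K27me3 change measured from them, are a description. A member that also held H3K4me2 or H3K4me3 reads above 5 times the genome mean in myoblasts is called bivalent here. That class was chosen by myoblast H3K4me2 and H3K4me3, so the change of these marks within it is a description too.

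The study mapped 6 histone marks by chromatin immunoprecipitation and sequencing in C2C12, a line of mouse muscle precursor cells of strain C3H, as dividing myoblasts and as differentiated myotubes. There was 1 library for each mark and cell type, 12 in all, which leaves every value without a replicate, and no p-value was computed. The cells were at passages 15 to 18. Myoblasts were collected near confluence in 10% serum, and myotubes about 5 days after the serum was withdrawn, once light trypsin treatment had taken away cells that had not fused. All 12 libraries were amplified over 15 PCR cycles and held fragments of about 250 bp with adaptors. The PCR reads carry no molecular identifiers, so the intervals of read counts and ratios cover counting error only. Each is at 95%. Read counts have exact Poisson intervals, ratios have exact binomial intervals conditional on the sum of the counts, shares have Clopper-Pearson intervals and medians have order-statistic intervals. Those of shares and medians treat members or genes as independent. Members at the same gene or in the same stretch of the mark are not, so these intervals are narrower than they should be. None of the intervals covers the spread between replicates.

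H3K27me3 is placed by Polycomb repressive complex 2 and is found at silent genes, above all at those that direct the development of other tissues. H3K4me3 and H3K4me2 are typical of promoters that are active or able to become so, and a promoter that carries H3K27me3 together with H3K4 methylation is called bivalent, a state known best from stem cells. In muscle precursors, Polycomb is known to hold late muscle genes silent until the cells fuse.

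Reads on chromosomes 1 to 19 and X numbered 7011383 for H3K27me3, 2770947 for H3K4me3, 4288951 for H3K4me2, 6471484 for H3K4me1, 1857191 for H3K27ac and 7026942 for H3K36me3 in myoblasts. In myotubes they numbered 5010146, 3294370, 4751850, 6266847, 4721345 and 4309078 in the same order. Levels are given as fold over the genome mean, which is the number of fragment midpoints in an interval divided by the number that the library's mean density on these chromosomes gives for its width. At this depth a member held a median of 25 myoblast H3K27me3 reads and 11 in myotubes, but only 2 H3K4me3 reads in either cell type, so H3K4me3 at a single member is often below what these libraries can resolve.

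The deposited list named for myoblast H3K27me3 stands with the sample labelled H3K27ac, and the list named for H3K27ac with the sample labelled H3K27me3. The reads show which list is which. Over the list named for H3K27me3 the myoblast fold was 6.77 for H3K27me3 and 0.591 for H3K27ac, whereas over the list named for H3K27ac it was 0.797 and 36.5. The lists were therefore taken by name.

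The promoters of marker genes carried the marks of the labelled cells. H3K4me3 in the 2 kb around the TSS was above 5 times the genome mean at 6 of 6 myoblast markers in myoblasts and at 5 of 6 in myotubes. Of 12 myotube markers, 1 passed this level in myoblasts, Myog, which encodes the factor of early muscle differentiation, and 12 passed it in myotubes, where their median was 34.3 against 1.38 in myoblasts. None of 4 hepatocyte and 3 blood markers passed it in either cell type. Fibroblast markers were mixed. In myoblasts 5 of 6 passed and in myotubes 3 of 6, where their median was 5.04. The highest of them in myoblasts was the collagen gene Col3a1. Its gene body carried H3K36me3 at 7.71 times the genome mean in myoblasts and 1.54 in myotubes. The bodies of Col1a2, at 8.09 and 2.57, and of Dcn, at 2.24 and 0.800, were also lower in myotubes. Those of Col1a1, at 3.33 and 6.74, and of the growth factor receptor Pdgfra, at 1.80 and 3.19, were higher. The surface marker Thy1 had body H3K36me3 at 0.210 and 0.342, and H3K4me3 at 0.461 and 0.388. The part of such cells in the results below was not tested. Of markers of other lineages, 2 of 5 for adipocytes, 2 of 6 for bone and cartilage and 2 of 5 for neurons passed in each cell type. Of the members' own genes, Pax7, Acta1, Cebpa, Col2a1, Acan, Nefl, Rbfox3, Alb and Afp are among these markers.

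Sequences of 200 bases that end at the TSS are given for a few genes with this mark, from windows that meet no annotated exon. Nkx2-5 (chr17:26978511-26978710, minus strand) stands for developmental factors inside long intervals. Wnt1 (chr15:98621922-98622121, plus strand) and Lhx4 (chr1:157589158-157589357, minus strand) are developmental genes with a bivalent interval, and Adck3 (chr1:182123794-182123993, minus strand) and Lrrc26 (chr2:25145235-25145434, plus strand) are bivalent genes with more H3K4me3 in myotubes. Acta1 (chr8:126418652-126418851, minus strand) is the skeletal actin gene, whose interval lies just downstream of its TSS, so these bases are outside it. Each is mm9 sequence read 5′ to 3′ on the strand of the gene, with the motif CG, the site of DNA methylation, in capitals.
Nkx2-5: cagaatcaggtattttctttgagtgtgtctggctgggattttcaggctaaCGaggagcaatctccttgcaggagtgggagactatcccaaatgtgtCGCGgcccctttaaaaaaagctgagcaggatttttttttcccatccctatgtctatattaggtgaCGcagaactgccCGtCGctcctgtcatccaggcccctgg
Wnt1: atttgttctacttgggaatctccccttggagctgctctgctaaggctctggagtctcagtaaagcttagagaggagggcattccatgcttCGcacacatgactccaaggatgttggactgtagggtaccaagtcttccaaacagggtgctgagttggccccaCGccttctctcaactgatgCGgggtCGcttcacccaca
Lhx4: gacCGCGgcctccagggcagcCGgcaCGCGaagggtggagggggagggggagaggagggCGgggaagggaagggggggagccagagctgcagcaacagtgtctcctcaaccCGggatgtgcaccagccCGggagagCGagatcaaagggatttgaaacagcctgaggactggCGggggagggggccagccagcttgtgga
Adck3: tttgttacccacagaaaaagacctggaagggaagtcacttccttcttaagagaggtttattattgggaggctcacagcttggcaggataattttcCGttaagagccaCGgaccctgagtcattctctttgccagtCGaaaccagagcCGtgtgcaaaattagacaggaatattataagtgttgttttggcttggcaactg
Lrrc26: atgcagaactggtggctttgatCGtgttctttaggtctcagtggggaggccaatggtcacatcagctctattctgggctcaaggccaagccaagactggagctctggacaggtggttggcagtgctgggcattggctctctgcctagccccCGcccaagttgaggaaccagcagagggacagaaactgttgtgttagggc
Acta1: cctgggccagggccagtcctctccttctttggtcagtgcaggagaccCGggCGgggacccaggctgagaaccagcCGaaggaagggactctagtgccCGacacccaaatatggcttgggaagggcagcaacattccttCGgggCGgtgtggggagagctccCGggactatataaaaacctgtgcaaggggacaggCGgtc

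The dinucleotide CG reads the same on both strands and its matches cannot overlap. The 200 bases held 6 in Nkx2-5, 4 in Wnt1, 10 in Lhx4, 4 in Adck3, 2 in Lrrc26 and 8 in Acta1. Over the same 200 bases of all protein-coding promoters, 90.7% held at least 1 CG and the median was 9. Promoters of genes with a bivalent interval had a median of 14 and 98.3% held CG, those of genes with other intervals a median of 6 and 94.5%, and those of genes without an interval a median of 9 and 90.3%. Bivalent genes thus stood above all promoters in both values, and genes with other intervals had a lower median but a higher share with CG. The first quartile of bivalent genes was 8. The printed windows of Wnt1, Adck3 and Lrrc26 fell below it, so they are poor in CG for their class and do not show its range.

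The members were wide, and wider than the rest of the list. Their width had a median of 1360 bp and ranged from 375 to 16034 bp, against a median of 975 bp for intervals over 2 kb from a TSS. The deposited score ran from 50 to 1004 with a median of 85.4, against 70.6 for the farther intervals. The TSS lay inside 740 members, or 33.0%. A further 873 had it within 1 kb, and 630 had it 1 to 2 kb away. Among members without a TSS inside, 702 were upstream of the nearest TSS and 801 downstream. Of the genes, 1061 had 1 interval and 537 had 2 or more, up to 9 at Ehf, which encodes an Ets factor of epithelia. The share of genes with a member was highest on chromosome 15, at 11.6%, and lowest on chromosome 16, at 3.74%.

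Many members stood in longer stretches of the mark. When intervals of the list within 10 kb of each other were joined, 1490 of the 7325 resulting domains held a member, and 506 of those 1490 held a single interval, against 4015 of all 7325. The domain over the Hoxb cluster was the longest with a member, 231 kb with 52 intervals, 22 of them members. It was followed by the domain over the Hoxd cluster, 184 kb with 40 intervals, and by that beside Foxf1a, a forkhead factor of gut and lung mesenchyme, 170 kb with 46 intervals. The Hoxb domain held 3632 myoblast and 1596 myotube H3K27me3 reads, a ratio of 0.615 after scaling to total reads, and the Hoxd domain 1937 and 805, a ratio of 0.582.

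The intervals named next to the limit of 2 kb differed widely in reads on both sides of it. Just inside it were an interval of Mafa, 1998 bp from the TSS with 224 myoblast H3K27me3 reads, and one of Pdx1, 1996 bp away with 30 reads. Both genes encode factors of pancreatic beta cells. Just outside were an interval near Gm8420, 2001 bp away with 8 reads, and one near Lyz1, a lysozyme gene, 2005 bp away with 53 reads. For the bivalent class, Rnf112 was just above the limit with 3 H3K4me3 reads, 5.00 times the genome mean, and Tbx2, a T-box factor, was just below it with 11 H3K4me2 reads, 4.99 times. A level of 5 in a narrow interval can thus rest on few reads.

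The 8 members with the highest scores were at developmental and neuroendocrine genes. The interval of Nkx2-5, the homeobox factor of the early heart, was 13121 bp wide and held 364 myoblast H3K27me3 reads, 10.1 times the genome mean. That of Hoxb9, a factor of the body axis, held 215 reads, and that of Gata6, a zinc finger factor of heart and endoderm, 207. Gcgr, the glucagon receptor gene, held 189 reads and Hpcal4, which encodes a neuronal calcium sensor, 172. Tlx2, a homeobox factor of enteric neurons, held 162, Barx1, a homeobox factor of the stomach, 149, and Pnoc, which encodes the precursor of nociceptin, 130. Of these 8, Tlx2, Gata6 and Hpcal4 were bivalent.

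T-box, GATA, homeobox and lineage bHLH factors were the gene groups with the largest shares of members. Of 124 homeobox factors outside the Hox clusters, 71 had an interval, or 57.3% (48.1 to 66.1), beside 7.51% of all genes. They included Onecut3, a factor of liver and neurons, with 370 myoblast H3K27me3 reads, Cdx2, a factor of the trophoblast and intestine, with 183, and Lhx4, a factor of the pituitary, with 176. Of 16 T-box factors 10 had an interval, led by Tbx5, a factor of heart and forelimb, with 95 reads, and T, the mesoderm factor Brachyury, with 85. Of 36 lineage bHLH factors other than the myogenic ones 20 had an interval, among them the oligodendrocyte factors Olig1, with 114 reads, and Olig2, with 106. The GATA factors had an interval at 3 of 5 genes, the Sox factors with 5 of 17, Sox2 of pluripotent and neural cells among them with 37 reads, and the forkhead factors with 8 of 40, led by Foxd1, a factor of kidney stroma, with 160 reads.

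The Hox clusters were split between the presence and absence of the mark. All 10 Hoxb genes and all 9 Hoxd genes had an interval, and none of 11 Hoxa and 9 Hoxc genes had, for 19 of 39 in all. In the 2 kb around the TSS the median myoblast H3K27me3 was 8.38 times the genome mean in Hoxb, with a range of 3.83 to 13.5 over genes, and 6.74 in Hoxd, but 0.911 in both Hoxa and Hoxc. The medians of H3K4me3 were the reverse, with 1.61 in Hoxb, 1.38 in Hoxd, 23.3 in Hoxa and 24.0 in Hoxc. The gene ranges of H3K27me3 did not overlap between the pairs of clusters. The highest Hoxa gene stood at 2.19 and the highest Hoxc gene at 1.28. The intervals were called from the same myoblast H3K27me3 reads, so this gap is part of the choice and nothing is read from it. The gene ranges of H3K4me3, which did not choose the intervals, did overlap, since the lowest Hoxa and Hoxc genes stood at 0. In myotubes H3K27me3 was 3.57 in Hoxb and 2.80 in Hoxd, and H3K4me3 remained near its myoblast level, at 1.55 in Hoxb, 1.16 in Hoxd, 20.4 in Hoxa and 25.2 in Hoxc.

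Genes of secreted signals also carried the mark, ligands more than most groups. Of 19 Wnt ligands 10 had an interval. Wnt1, a signal of the midbrain and the early somite, stood at 11.1 times the genome mean, followed by Wnt7b at 10.3, Wnt3a at 9.83 and Wnt9b, a signal of the kidney, at 9.29, in the order of the 4 named here. Of 20 fibroblast growth factors 7 had one, with Fgf8, a signal of limb and brain, highest at 76 reads, and of 27 BMP, GDF and activin ligands 7 had one. The Hedgehog pathway had 4 of 10, namely the ligands Shh and Ihh, the receptor Ptch1 and the effector Gli2. The Notch pathway had 5 of 22, among them the target Hes5, with 156 reads, the ligand Dll4, with 32, and the receptor Notch4, with 71.

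Channels and receptors of excitable cells carried the mark as well. Potassium channel subunits had an interval at 31 of 92 genes, led by Kcnc4 with 165 reads, voltage-gated calcium and sodium channel subunits at 10 of 39, led by Cacna1c with 70, and neurotransmitter receptors at 17 of 96, led by the adrenergic receptor Adra2a with 105. Collagens had 7 of 41, and integrins and laminins 2 of 42, the laminin chain Lamc3 and the integrin chain Itga8. Olfactory receptors, silent genes with few CG, had 35 of 1081, or 3.24% (2.27 to 4.47), below the 7.51% of all genes.

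Several lists of housekeeping genes and chromatin factors held no interval or 1. None of 89 ribosomal protein genes had an interval, none of 30 genes for core subunits and partners of Polycomb complexes, none of 17 genes for enzymes that add or remove H3K27 and H3K4 marks, none of 34 protocadherins and none of 7 inhibitors of cyclin-dependent kinases. Among these only the ribosomal proteins have an upper bound, 4.06%, below the 7.51% of all genes. The bounds were 11.6% for the Polycomb list, which leaves out Sfmbt2, a related gene with a member, and 19.5% for the enzymes, so their intervals include the share of all genes. Of 38 proteasome genes 1 had an interval, Psmb9, a subunit of the immunoproteasome, and of 32 cell cycle and replication genes 1 had, Ccnd2, which encodes cyclin D2.

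Genes of the muscle lineage were marked about as often as all genes. Of 22 regulators of the lineage 3 had an interval, or 13.6% (2.91 to 34.9). These were Pax7, the factor of satellite cells, with 30 myoblast H3K27me3 reads, Mef2b, with 23, and Eya2, with 17. Of 74 contractile, calcium-handling and metabolic genes of the fibre 7 had one, or 9.46% (3.89 to 18.5), among them Acta1, Actn2, Cacna1s, Myh6, Myh7 and Myl2. Of 21 regulators and markers of fat, bone, cartilage and tendon 5 had one, Cebpa and Zfp423 of fat cells, Ebf2 of brown fat, and Col2a1 and Acan of cartilage. Col2a1, the collagen of cartilage, held 327 reads over 11341 bp, more than Gata6 or Hoxb9.

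**Figure D1:**
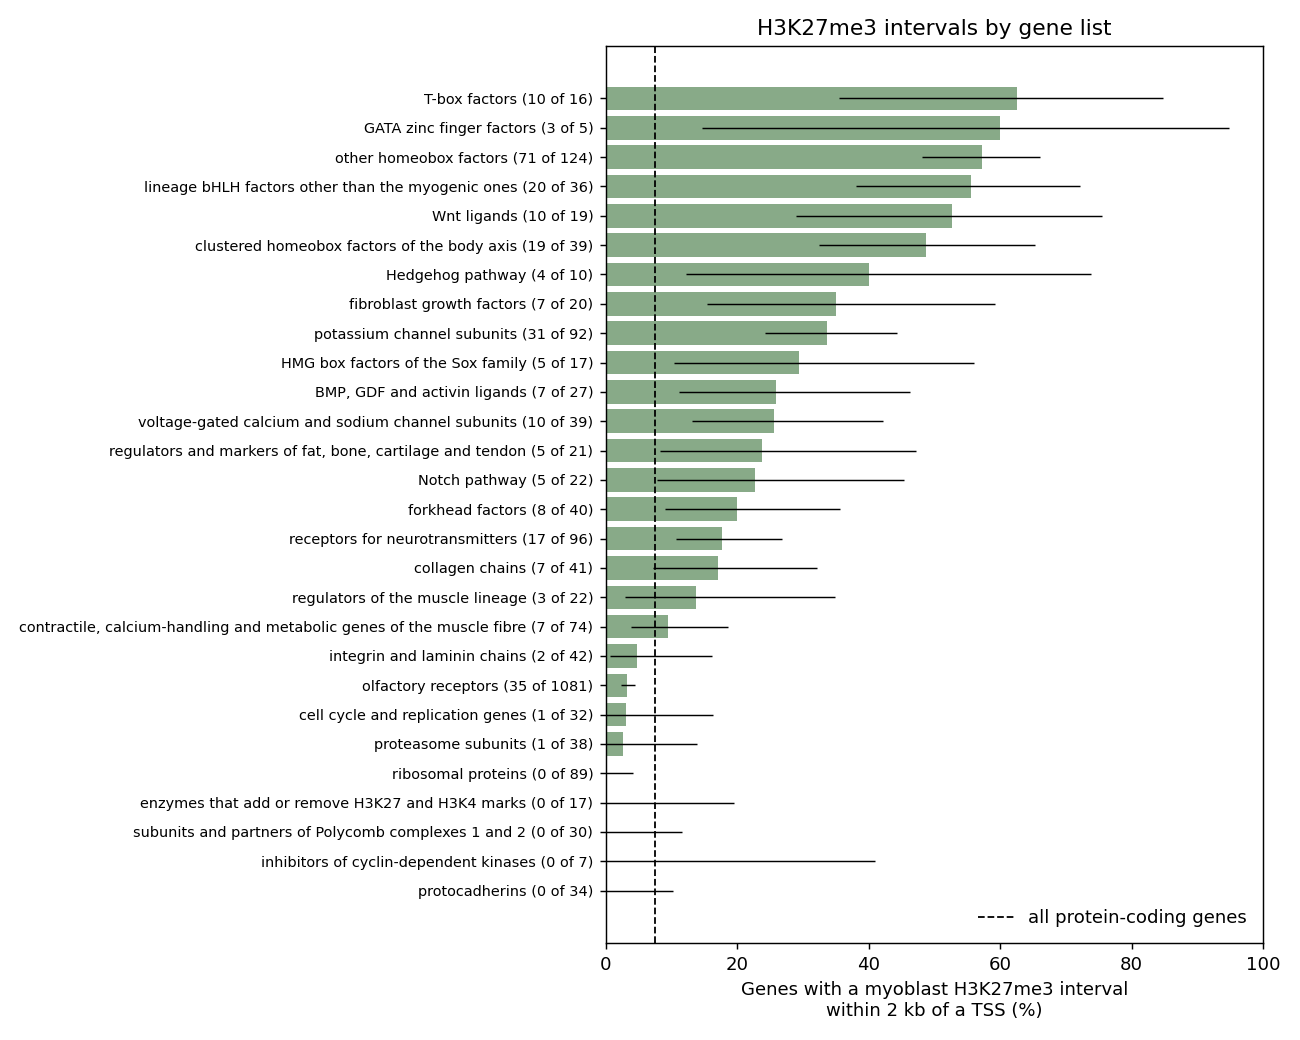
Share of the genes in each list with a myoblast H3K27me3 interval within 2 kb of a TSS, in percent, with exact Clopper-Pearson intervals at 95% as lines and the share over all protein-coding genes, 7.51%, as a dashed line. The lists of T-box, GATA, homeobox, bHLH and Wnt genes have shares above 50%, and ribosomal proteins have none.

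The other marks were low at most members. In myoblasts the median over the 2243 members was 6.93 for H3K27me3, which chose them, 1.18 for H3K4me3, 1.06 for H3K4me2, 1.26 for H3K4me1, 0.533 for H3K36me3 and 0 for H3K27ac, with no H3K27ac read in 1137 members. Intervals over 2 kb from a TSS had medians of 0.955 for H3K4me3, 0.282 for H3K4me2 and 0.616 for H3K4me1, so the H3K4 marks stood higher near a TSS, H3K4me2 the most. In the 2 kb around the TSS, promoters of genes with an interval had medians of 1.38 for H3K4me3, 3.57 for H3K4me2 and 0.688 for H3K27ac, against 9.22, 16.4 and 6.19 for genes without an interval. H3K4me1 was 2.17 against 1.97. These promoters were thus lower in H3K4me3, H3K4me2 and H3K27ac and not in H3K4me1.

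Bivalent intervals were 428 of the 2243 members, or 19.1% (17.5 to 20.8), beside 3.81% of the whole list and 1.58% of the intervals over 2 kb from a TSS. The class rested on H3K4me2. H3K4me2 was above 5 times the genome mean at 420 members and H3K4me3 at 66, with 362 passing for H3K4me2 alone, 8 for H3K4me3 alone and 58 for both. Of the 2 kb windows at all protein-coding promoters, 58.1% held either mark above this level. At promoters of genes with an interval this share was 44.2%, and at those of genes without it was 59.2%. The gap was wider for H3K4me3 by itself, with 15.7% against 53.3%. The number of bivalent intervals depends on its limit and window, with 658 at 3 times and 233 at 10 times the genome mean, and 818 when reads were counted in the 2 kb around the nearest TSS. It was 224 of the 891 members with a score of at least 100.

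The bivalent members also held more H3K4me1 and H3K27ac than the others, at a similar level of H3K27me3. Bivalent members had a myoblast median of 10.5 for H3K4me2 and 2.50 for H3K4me3, the marks that chose them, against 0.746 and 1.01 in the other 1815. H3K4me1, which did not choose them, was 4.49 against 0.995, H3K27ac 1.30 against 0 and H3K36me3 0.624 against 0.512. H3K27me3 was 7.50 against 6.82. A myoblast H3K4me2 peak, called from the reads that chose the class, overlapped 381 of 428 bivalent members and 130 of 1815 others. A myoblast H3K4me1 peak overlapped 222 and 75. H3K27ac peaks overlapped 10 bivalent members and none of the others. The libraries are of whole populations, so an interval with both marks may hold them on the same or on different cells or alleles, and fewer marked cells and less mark per cell cannot be told apart.

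CG content separated the classes, a property that the rule did not use. The ratio of observed to expected CG had a median of 0.547 in bivalent members, 0.255 in other members and 0.204 in intervals over 2 kb from a TSS. It was over 0.6 in 36.4% of bivalent and 5.73% of other members. Of the 590 members with a ratio under 0.2, 1.69% were bivalent, rising through 7.95% of 893 and 38.2% of 500 to 156 of the 260 members over 0.6. The TSS was inside the interval in 15.3% of the class with least CG and 58.8% of the class with most. CG content and the position of the TSS thus moved together, and their separate parts were not tested. Intervals over 2 kb from a TSS followed the same order at lower shares, from 0.740% to 31.8%.

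**Figure D2:**
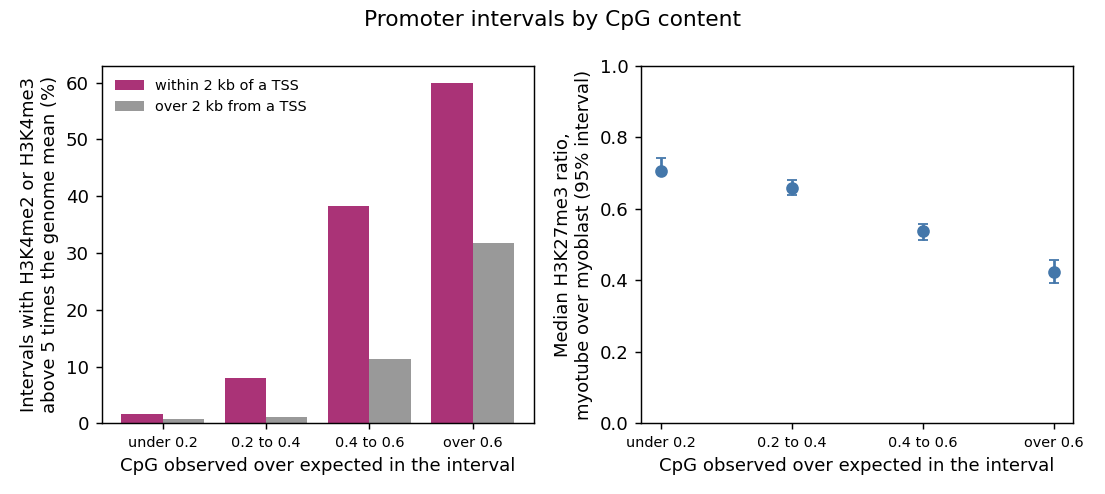
Left, share of intervals with H3K4me2 or H3K4me3 above 5 times the genome mean in myoblasts, in percent, by the ratio of observed to expected CG in the interval, for members and for intervals over 2 kb from a TSS. Right, median ratio of H3K27me3 in myotubes over myoblasts in the same classes of members, with order-statistic intervals at 95%. Bivalent members are 10 of 590 in the lowest class and 156 of 260 in the highest, and the median ratio goes from 0.705 to 0.424.

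Around the TSS, H3K27me3 at bivalent genes dipped close to the TSS, where H3K4me2 was high. Averaged over the 419 promoters of genes with a bivalent interval, myoblast H3K27me3 was 7.08 times the genome mean 850 bp downstream of the TSS and 4.73 in the 100 bp after the TSS. In the same 100 bp H3K4me2 was 29.3, of the order of the 24.8 of promoters without an interval, and H3K4me3 was 6.30, against 23.6 in promoters without an interval. Both had their maximum 250 bp downstream of the TSS. Genes with other intervals showed a flatter H3K27me3 profile, with 4.38 just after the TSS and a maximum of 5.00. Genes with other intervals also had more H3K4me2 than H3K4me3 there, 11.5 against 4.72. As 420 of the 428 bivalent members passed by H3K4me2 and 66 by H3K4me3, the part of the choice in the profile of the class was not tested.

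**Figure D3:**
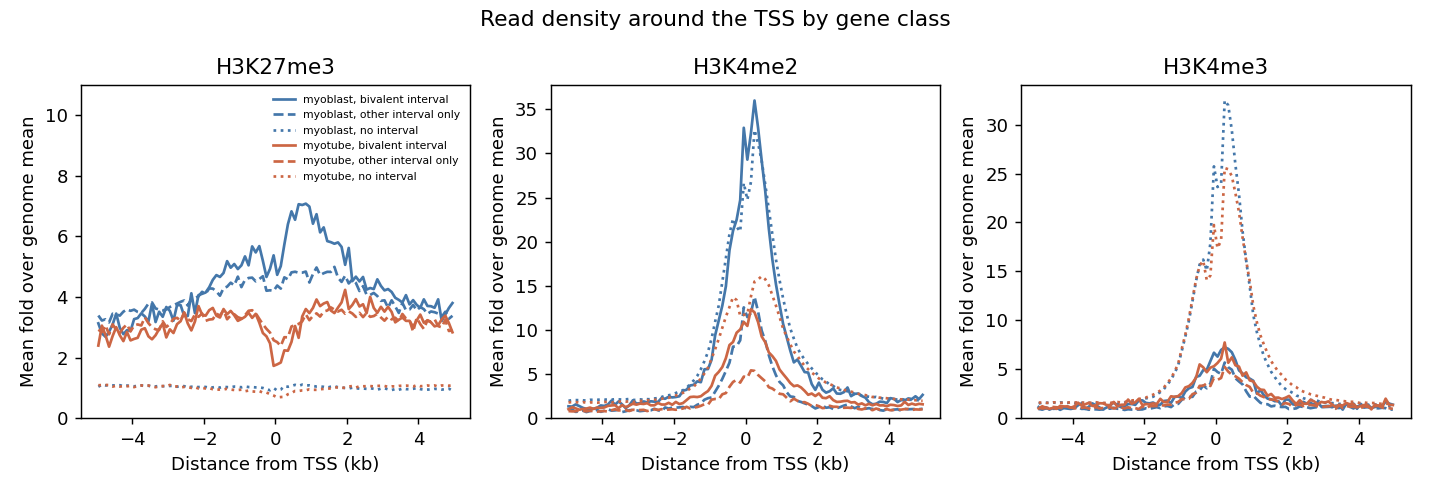
Mean fold over the genome mean of H3K27me3, H3K4me2 and H3K4me3 in bins of 100 bp up to 5 kb either side of the TSS (distance in kb), for genes with a bivalent interval, genes with other intervals and genes without an interval, in myoblasts and myotubes. In bivalent genes H3K27me3 just after the TSS is 4.73 in myoblasts and 1.78 in myotubes.

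In myotubes H3K27me3 was lower at the members. Its median was 4.15 times the genome mean, against 6.93 in myoblasts, and 731 members, or 32.6%, were above 5, against 2040. Of the farther intervals 32.2% were above 5 in myotubes, so this share was not particular to promoters. The ratio of myotubes to myoblasts, with 1 read added to each count and scaled to total reads, had a median of 0.622 (0.606 to 0.632). Over summed reads, 81897 in myoblasts and 34825 in myotubes, it was 0.595. Because the myoblast library chose the members, a ratio under 1 is partly built into the choice, and the same rule applied to the myotube list gives the reverse case. That list gave 914 of 12843 intervals within 2 kb of a TSS, and their median ratio was 1.57 (1.40 to 1.63). Each set was higher in the library that chose it, and how much of either ratio comes from the choice was not tested. Scores of the myotube promoter intervals reached 181.6 and widths 1375 bp, against 1004 and 16034 bp at members. There was 1 H3K27me3 library per cell type. How much of the H3K27me3 ratios, here and below, comes from unequal immunoprecipitation in these libraries was not tested. At all promoters with at least 20 H3K27me3 reads, a set that no peak list chose, the median ratio was 0.778. It was 0.653 at promoters of genes with an interval and 0.866 at those of genes without, sets that the myoblast list divides.

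Members met a myotube peak about as often as the farther intervals. An interval of the myotube list overlapped 520 members, or 23.2%, beside 3185 farther intervals, or 20.7%. The 520 had a median ratio of 0.800, against 0.573 for the other 1723. As a share of the myotube list, 451 of its 914 promoter intervals overlapped a myoblast interval, with a median ratio of 1.23. The myotube intervals were narrow, with a median width of 344 bp against 1360 bp, so this overlap also depends on how peaks were called, and with an overlap of at least 50% of the member it was 44.

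Among the members, the bivalent ones had the lower ratios. Their median was 0.504 (0.477 to 0.531), against 0.646 (0.633 to 0.659) in the others and 0.700 in intervals over 2 kb from a TSS. Their H3K27me3 went from a median of 7.50 to 3.67 and that of the others from 6.82 to 4.29, so the order of the classes turned. Among members with at least 40 reads the medians were 0.512 in 252 bivalent and 0.653 in 783 other members. Of 1848 members with at least 20 H3K27me3 reads in both libraries together, 522, or 28.2%, were at least 2-fold lower in myotubes, beside 17.6% of the whole list, and 2 were at least 2-fold higher, beside 0.119%. Both counts come from the contrast that chose the members, and nothing is read from them. The 522 comprised 182 of 381 bivalent and 340 of 1467 other members. The ratio followed CG content as well, from 0.705 in members under 0.2 to 0.424 in members over 0.6, and the parts of CG and of H3K4 methylation were not tested. The number at least 2-fold lower was 302 with a minimum of 40 reads, 276 with 5 reads added to each count and 298 among members with a score of at least 100.

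**Figure D4:**
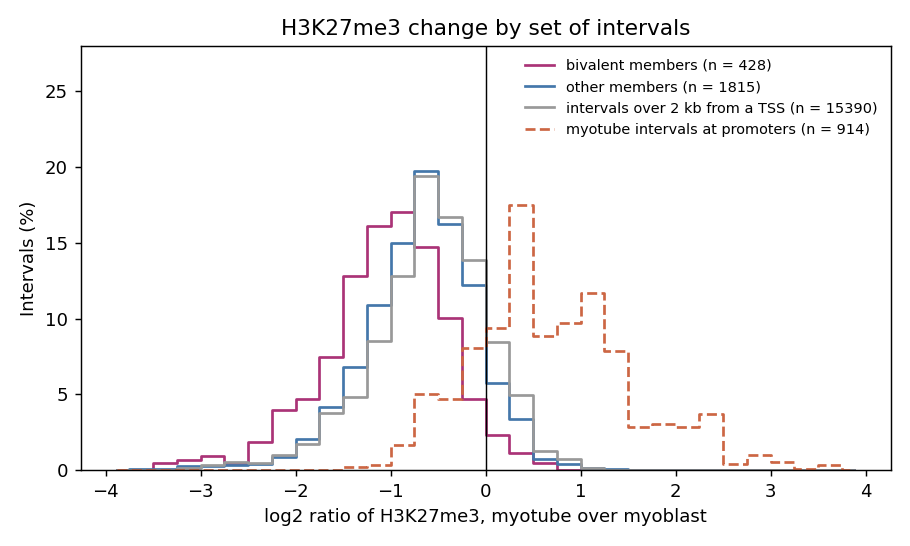
Distribution of the log2 ratio of H3K27me3 in myotubes over myoblasts, in percent of the intervals of each set, for bivalent and other members, for intervals of the myoblast list over 2 kb from a TSS and for promoter intervals of the myotube list. Sets from the myoblast list lie mostly below 0 and the set from the myotube list mostly above 0. Medians as ratios are 0.504, 0.646, 0.700 and 1.57.

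Members with the lowest H3K27me3 ratios included genes of cell death and of signalling. At Hrk, which encodes a BH3-only activator of apoptosis, 65 myoblast reads stood against 5 in myotubes, a ratio of 0.127 (0.0338 to 0.264). At Sept4, a septin gene, 40 stood against 3, a ratio of 0.137 (0.0208 to 0.330), while its H3K4me1 reads were 3 and 40 and its H3K27ac reads 1 and 26. Both of these marks of activity were thus high in myotubes alone. The interval of A930017K11Rik went from 49 to 4 reads, that of Acvr2b, a receptor for activin and myostatin, from 36 to 4 and that of Lrrc26, an auxiliary subunit of potassium channels, from 58 to 7. The last 3 were bivalent.

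No member with at least 40 reads was 2-fold higher in myotubes. The highest ratio was 1.84 (0.971 to 3.65) at C1qc, a complement gene, with 18 and 24 reads, followed by 1.69 (0.946 to 3.10) at 2010015L04Rik, with 23 and 28. Shank3, a scaffold of synapses, Grin1, a glutamate receptor subunit, and Plcb2, a phospholipase, followed with 1.40 each and Olfr1415 with 1.33. The intervals of all 6 ratios include 1. The 2 members called higher fall under the 40 reads and were picked out after their values were seen. They were Fmod, which encodes the matrix protein fibromodulin, with 10 and 15 reads, and Rhcg, an ammonium transporter gene, with 8 and 15, and their number was between 0 and 7 under other settings.

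At Nkx2-5, Gata6 and Col2a1, H3K27me3 was lower in myotubes without higher H3K4me3, unlike at other developmental genes such as Olig1 and Tal1 below. At Nkx2-5 it was 364 reads in myoblasts and 149 in myotubes, a ratio of 0.575 (0.470 to 0.695), with 22 and 23 H3K4me3 reads. At Gata6 it was 207 and 53, a ratio of 0.363 (0.260 to 0.487), with 29 and 26 H3K4me3 reads. At Col2a1 it was 327 and 107, a ratio of 0.461 (0.365 to 0.571), and its 27 and 12 H3K4me3 reads gave a ratio of 0.391 (0.173 to 0.763), so both marks were lower. The 3 genes kept H3K27me3 above the genome mean in myotubes, at 5.79, 3.51 and 4.81 times. Per list, the median ratio of the genes with an interval, each by its interval with most myoblast reads, was 0.506 for homeobox factors, 0.565 for Hox genes, 0.461 for T-box factors, 0.435 for Sox factors, 0.538 for bHLH factors and 0.558 for Wnt ligands. For potassium channels it was 0.560, for calcium and sodium channels 0.673 and for olfactory receptors 0.700. For collagens it was 0.533, for neurotransmitter receptors 0.594 and for muscle fibre genes 0.373, so low ratios were not particular to developmental factors. These medians take 1 interval per gene, and how that choice moves them against the median over all members was not tested.

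H3K4me2 was also lower in myotubes at bivalent members. Its median was 10.5 in myoblasts and 3.95 in myotubes, and the ratio had a median of 0.347 (0.327 to 0.383). Of 376 bivalent members with at least 20 reads 275 were at least 2-fold lower, and of 530 members in all 317 were, or 59.8%, beside 36.6% of all promoters and 48.4% of 254 farther intervals with as many reads. The ratio of all promoters above 5 times the genome mean of H3K4me2 in myoblasts, chosen in the same way, was 0.582. The 207 members above 5 times in myotubes, 171 of which are bivalent members, had a median H3K4me2 ratio of 0.508, and what part of these ratios comes from the choice was not tested. Scaling by windows without peaks multiplies the ratios by 0.643 for H3K4me2, 0.808 for H3K4me1 and 1.117 for H3K36me3, which would put the bivalent median of H3K4me2 at 0.223. H3K4me1 at bivalent members went from a median of 4.49 to 2.25, a ratio of 0.534 (0.516 to 0.563).

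H3K4me3 showed no such shift. Its median at bivalent members was 2.50 in myoblasts and 2.16 in myotubes. The median ratio, 0.841, is the value that equal counts take after scaling, and the ratio of summed reads, 2779 and 3422, was 1.04 (0.985 to 1.09). At all promoters above 5 times H3K4me3 in myoblasts the median ratio was 0.852. Of 95 bivalent members with at least 20 H3K4me3 reads, 19 were at least 2-fold higher in myotubes and 9 at least 2-fold lower. Of 135 members in all, 30 were higher, or 22.2%, beside 3.42% of promoters with as many reads and 20 of 86 farther intervals, or 23.3%. Lower were 11, or 8.15%, beside 7.68% of promoters and 6 farther intervals. The members were thus close to the farther intervals, which are counted in the same way. Members hold few H3K4me3 reads, so some reach 20 only through their myotube reads. In the 2 kb windows of genes with an interval, 11.6% of 301 promoters with 20 reads were higher and 11.3% lower. With a minimum of 40 reads 8 bivalent members were higher, and with 5 reads added to each count 12 were.

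Most bivalent members were below the limit for H3K4 methylation in myotubes. Of the 428 bivalent in myoblasts, 171 also had H3K4me2 or H3K4me3 above 5 times the genome mean in myotubes and 257 did not. Of the other 1815, 36 were above it in myotubes. The remaining 1779 were below it in both cell types. Over all promoters 12436 were above it in myoblasts and 11670 in myotubes, and over the farther intervals 243 and 223. As the class was chosen in myoblasts by this limit, how much of its drop comes from the choice was not tested.

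H3K4me2 and H3K4me3 had different numbers of members with enough reads for a call, 530 and 135, so the counts of joint calls are not compared with each other. Both H3K27me3 and H3K4me2 were at least 2-fold lower at 126 members, 115 of them in the class chosen by H3K4me2, and at 31 of the 15390 farther intervals. H3K27me3 was at least 2-fold lower and H3K4me3 at least 2-fold higher at 21 members, 14 of them bivalent, and at 9 of the farther intervals. The genes of the 21, listed after their values were seen, included Acta1 and Myh7 of the contractile apparatus, Colq of the neuromuscular junction, the receptor gene Fgfr3, the transcription factor genes Hoxb3, Hoxb9, Neurod1, Olig1 and Tal1, the potassium channel genes Kcnk10 and Kcnk13, the Wnt inhibitor genes Wif1 and Shisa2, the Polycomb-group gene Sfmbt2, and Adck3, with 2 members, Cyp26b1, Fam171a2, Lrrc26 and Mmp15.

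Of the bivalent members with large H3K4me3 ratios, most also held more H3K27ac in myotubes. At Adck3, a mitochondrial kinase gene of coenzyme Q synthesis, H3K27me3 was 35 reads in myoblasts and 4 in myotubes, H3K4me3 8 and 137, H3K4me2 30 and 193, H3K4me1 25 and 56, H3K27ac 3 and 211 and H3K36me3 9 and 11. H3K4me3 was thus 3.95 times the genome mean in myoblasts and 56.9 times in myotubes, a ratio of 12.9 with a lower bound of 7.11. At Lrrc26 H3K27me3 was 58 and 7, H3K4me3 10 and 50, H3K4me2 68 and 101, H3K4me1 80 and 79, H3K27ac 4 and 43 and H3K36me3 7 and 8. Its H3K4me2 was 15.6 times the genome mean in myoblasts already. At Mmp15, a membrane matrix protease gene, H3K4me3 was 21 and 93 reads, with 36 and 7 for H3K27me3 and 3 and 26 for H3K27ac. At Cyp26b1, whose product degrades retinoic acid, H3K4me3 was 18 and 70 reads, with 96 and 21 for H3K27me3 and 3 and 22 for H3K27ac. At Fgfr3 H3K4me3 was 5 and 32, with 25 and 3 for H3K27me3 and 2 and 22 for H3K27ac. Atp6v1c2, which encodes a subunit of the proton pump, had 5 and 40 H3K4me3 reads with 38 and 13 for H3K27me3, and its 2 and 10 H3K27ac reads do not resolve a change. Fgfr3 is named by its H3K27ac ratio, so its H3K27ac is part of the choice.

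At the other end were neural and developmental genes with less H3K4 methylation in myotubes. Nefl, the light neurofilament gene, had 58 and 21 H3K4me3 reads, a ratio of 0.314 (0.176 to 0.509), with 240 and 37 for H3K4me2, 27 and 3 for H3K27ac and 25 and 6 for H3K27me3. Wnt1 had 40 and 17 H3K4me3 reads, a ratio of 0.369 (0.190 to 0.645), with 285 and 76 for H3K4me2 and levels of 11.1 and 5.22 for H3K27me3. Both were thus lower in the active marks and in H3K27me3. Sp9, a zinc finger factor of limb and brain, Pard6b, a gene of cell polarity, Gata6 and Lin28b, which encodes a blocker of let-7, completed the 6 lowest. Their ratios were from 0.701 to 1.02, with intervals that include 1. The ranking covers only the 18 bivalent members with at least 40 H3K4me3 reads. Some members with fewer reads, such as Pax7 below, had lower ratios than Sp9.

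Over all 74 muscle fibre genes the median promoter H3K4me3 went from 1.84 to 32.0, and those with a member had a median H3K27me3 ratio of 0.373, but single genes differed. Acta1, skeletal actin, had 18 H3K27me3 reads in myoblasts and 2 in myotubes, 3 and 168 for H3K4me3, 6 and 100 for H3K4me2, 3 and 12 for H3K4me1, 3 and 177 for H3K27ac and 4 and 15 for H3K36me3. Its H3K4me3 ratio was 35.5 (15.8 to 231). It was thus low in the active marks in myoblasts and high in myotubes, with H3K27me3 the reverse. Myh7, the slow and cardiac myosin heavy chain, had 18 and 5 H3K27me3 and 3 and 34 H3K4me3 reads, and Myl2, the matching light chain, had 70 and 34 H3K27me3 and 6 and 34 H3K4me3 reads. The intervals of both H3K27me3 ratios, 0.442 (0.113 to 1.09) and 0.690 (0.437 to 1.04), include 1, and at Myl2 H3K27me3 in myotubes was still 4.87 times the genome mean. Actn2, an actinin of the Z disc, had 14 and 2 H3K27me3 reads and 1 H3K4me3 read in each cell type, and Cacna1s, the calcium channel of excitation, 14 and 3 with 1 and 5. Myh6, the fast cardiac myosin, had 18 and 17 H3K27me3 and 1 and 3 H3K4me3 reads, and thus no loss that these depths resolve.

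Among the regulators, Pax7 was bivalent and held less H3K27me3 and less H3K4me3 in myotubes. It had 30 and 4 H3K27me3 reads, a ratio of 0.226 (0.0478 to 0.529), and 21 and 9 H3K4me3 reads, a ratio of 0.382 (0.145 to 0.821), whereas its H3K4me2 reads were 27 and 44. Mef2b had 23 and 7 H3K27me3 reads and Eya2 17 and 14, with at most 2 H3K4me3 reads in each library. Cebpa, the fat cell factor, was bivalent with 32 and 6 H3K27me3 reads, 53 and 23 for H3K4me2 and 11 and 4 for H3K4me3. The interval of its H3K4me3 ratio, 0.351 (0.0710 to 1.03), includes 1. In the 2 kb around its TSS, 560 bp from the member, H3K4me3 was 9.22 times the genome mean in myoblasts and 10.1 in myotubes. Acan had 69 and 19 H3K27me3 reads, Ebf2 87 and 27 and Zfp423 20 and 14, with at most 7 H3K4me3 reads in each library. Apart from Cebpa and Col2a1, the listed genes of fat and cartilage with an interval thus held H3K27me3 with few H3K4me3 reads in both cell types.

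**Figure D5:**
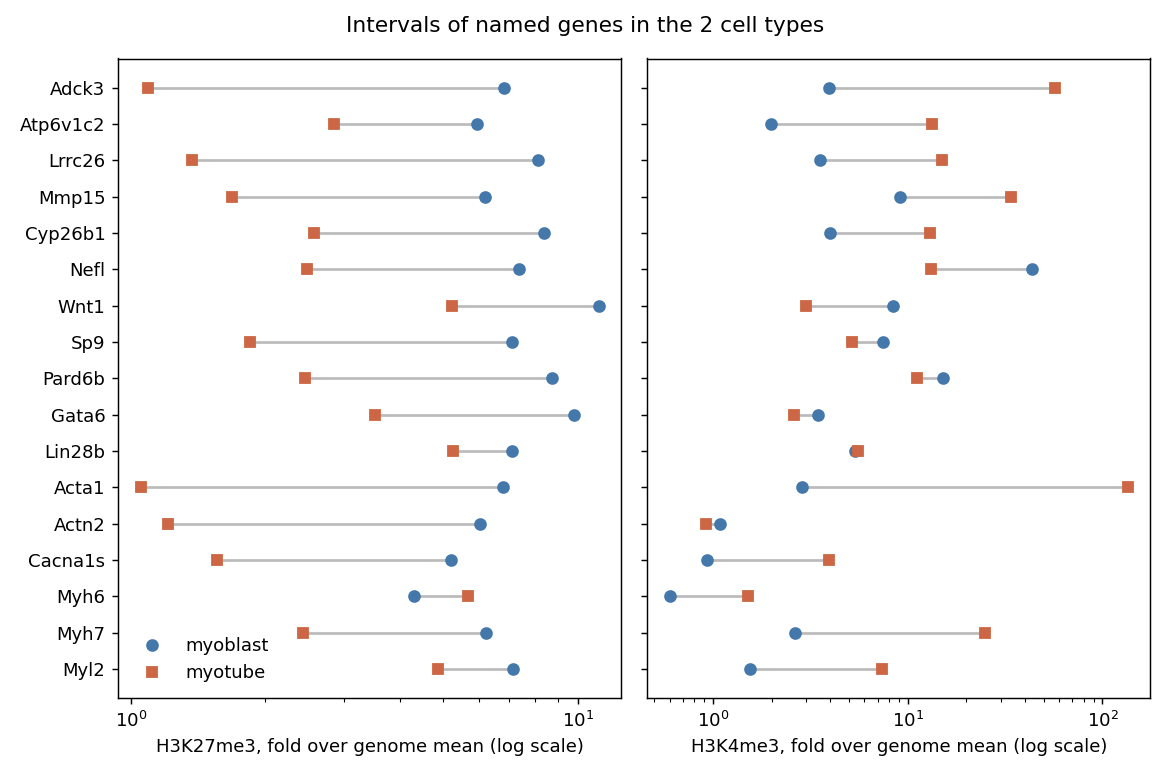
H3K27me3 (left) and H3K4me3 (right) as fold over the genome mean on a log scale, in myoblasts (circles) and myotubes (squares, joined by a line), at the intervals of bivalent members with the largest and the smallest H3K4me3 ratios and of muscle fibre genes. The ratios are ranked among bivalent members with at least 40 H3K4me3 reads. H3K27me3 is lower in myotubes at all intervals shown but Myh6, and H3K4me3 goes from 3.95 to 56.9 at Adck3.

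Marks of transcription were low over the genes of these intervals and slightly higher in myotubes. H3K36me3 in the gene body, a mark of elongation, had a median of 0.638 in myoblasts and 0.852 in myotubes for genes with a bivalent interval, 0.519 and 0.620 for genes with other intervals, and 1.59 and 1.67 for genes without an interval. Bodies above 2 times the genome mean were 6.44% of the bivalent genes in myoblasts and 14.6% in myotubes, 4.59% and 9.77% of the genes with other intervals, and 46.4% and 46.1% of those without. H3K36me3 over the members themselves summed to 6806 and 6045 reads, a ratio of 1.45 with a lower bound of 1.40. The same ratio was 1.22 (1.20 to 1.24) over the farther intervals, so a higher value in myotubes was not particular to the members. In the 2 kb windows of promoters of genes without an interval it was 0.958. H3K27ac summed to 2427 and 6094 reads, a ratio of 0.988 (0.942 to 1.04), and 28 members in myoblasts, or 1.25%, and 18 in myotubes, or 0.802%, were above 5 times the genome mean. This stands beside 0.435% and 0.442% of the farther intervals and 48.1% and 42.8% of all promoters in 2 kb windows. Acta1 and Adck3 were among the members above it in myotubes.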

How the data were processed

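The counts are the uniquely placed reads that the authors deposited, aligned to mm9 with Mosaik at default settings, and only their number per interval was made here. The score is that of the peak lists as deposited, which the authors called with MACS, at a version and settings that the sources used here do not give. Reads were extended to 150 bp and counted by their midpoints, and each library was scaled to its reads on chromosomes 1 to 19 and X. Genes and TSS are those of Ensembl release 65 on mm9. Lists were taken by name, because names and labels are swapped for H3K27me3 and H3K27ac in myoblasts. Ratios carry 1 added read, and calls need 20 reads in both libraries together and a 2-fold difference. Named genes are those with the highest scores, the extreme ratios (at least 40 reads, or 20 for H3K27ac), those next to a limit and up to 4 with most reads in each gene list, with muscle and fate genes in full. The members and lists were chosen with earlier results of these data known. The scripts were tried on simulated data first. The tools were scipy 1.17.1, matplotlib 3.10.9, pandas 2.3.3 and numpy 2.4.6 under Python 3.11.15.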

Additional observations from a re-analysis of the deposited data

How the results depend on the processing

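Of 96 alternatives, 35 moved the result beyond its tolerance, 61 moved it less or not at all and 0 reversed it. The tolerance is 1.5 times for a count and the order-statistic interval of the main value for a median. No paired analysis was possible because there was 1 library per mark and cell type. The median H3K4me3 ratio at bivalent members stayed within its interval, from 0.841 to 0.930. As 0.841 is the value of equal counts, on a median of 5 reads per member, this says little. What caused the other moves was not tested. At a score of at least 100 there were 891 members, 224 of them bivalent, with a median H3K27me3 ratio of 0.583, 298 at least 2-fold lower and 0 higher, 316 overlapping a myotube peak and 12 bivalent members with higher H3K4me3. Counting in the 2 kb around the nearest TSS gave 818 bivalent members, a median H3K27me3 ratio of 0.641 and 7 members higher.

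Bivalent members numbered 658 at 3 times and 233 at 10 times the genome mean, 66 by H3K4me3 alone and 58 with both marks required. The median H3K27me3 ratio was 0.5998 for members within 1 kb of a TSS, 0.5998 with reads not extended, 0.632 with reads extended to 250 bp and 0.733 with 5 reads added. Members at least 2-fold lower numbered 276 with 5 reads added and 302 with a minimum of 40 reads. Members at least 2-fold higher numbered 0 within 1 kb of a TSS, 1 with 1 TSS per gene, 1 with reads not extended, 1 when scaled by windows without peaks, 1 with 5 reads added, 0 with a minimum of 40 reads, 1 when the interval of the ratio had to lie beyond 1, and 5 with the myoblast library thinned to the depth of the myotube library. An overlap of at least 50% of the member left 44 on a myotube peak. The median H3K4me2 ratio at bivalent members was 0.223 when scaled by windows without peaks and 0.413 with 5 reads added, and over all members it was 0.903. Bivalent members with H3K4me3 at least 2-fold higher numbered 12 with 5 reads added and 8 with a minimum of 40 reads, and 30 over all members.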

Other observations

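Other members of the named rule show how far single genes of a family differed. Among the T-box factors, Tbx10 had 33 myoblast and 30 myotube H3K27me3 reads, a ratio of 1.28, while Tbx5 had 95 and 28, a ratio of 0.423. Among the GATA factors of heart and endoderm, Gata5 had 107 and 70, a ratio of 0.920, Gata4 115 and 42, a ratio of 0.519, and Gata6 207 and 53, a ratio of 0.363. Gdf6, a ligand of joints and skeleton, had 52 and 7 reads, a ratio of 0.211, and Scn8a, a sodium channel gene, 59 and 45, a ratio of 1.07. Hoxb5, Hoxb6 and Hoxb7 shared the widest member, 16034 bp, with 457 and 184 H3K27me3 reads and 38 and 54 H3K4me3 reads. Mafa, the gene just inside 2 kb, had 14 and 41 H3K4me3 and 16 and 57 H3K36me3 reads.

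Intervals on chromosome X lie outside the rule. Of the myoblast list, 33 were within 2 kb of a protein-coding TSS, 0 of them bivalent, with a median H3K27me3 of 5.90 times the genome mean in myoblasts and 3.44 (2.51 to 5.02) in myotubes and a median ratio of 0.700, on a median of 6 myotube reads.

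At 93 members, 2 or more genes had a TSS within 2 kb.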
